A study of Mus musculus with 2 samples.

Results

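Mir21a is the mouse gene of microRNA 21 (miR-21), a small RNA that directs repression of messenger RNAs paired with its 5′ end. It was taken as the row of each deposited table whose identifier, ENSMUSG00000065455.1, is Mir21a in GENCODE M21, and it is 1 gene of 2202 miRNA genes in the series. The assay was sequencing of small RNA (under 30 nt) in whole adrenal gland of male B6CASTF1/J mice at 2 months of age, first-generation hybrids for which the labels name no treatment. The series holds 1 group of 2 libraries, replicate 1 from animal 3 and replicate 2 from animal 4, given as separate biological replicates. There is no angiotensin II treatment, other tissue or other age, so the data give the level of Mir21a in the gland and its difference between 2 animals, and no comparison between conditions.

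miR-21 is best known from growth, injury and fibrosis, where it represses mRNAs such as that of Pdcd4, a restraint on translation and growth. In the adrenal cortex it has been reported to rise after angiotensin II, the peptide hormone that drives the outer cortical zone to make aldosterone, in a human adrenocortical cell line. It is also made by fibroblasts, endothelial cells and leukocytes, which the whole gland contains. In bulk tissue, more cells of a type and more RNA per cell cannot be told apart.

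The hairpin of Mir21a gives a 5p and a 3p strand, and the mouse annotation lists the related genes Mir21b and Mir21c. Their mature sequences are shown because they set which other genes could act through the same seed or take up the same reads. Sequences are from RefSeq (GRCm38.p6), with bases 2 to 8, the seed, in capitals.
miR-21a-5p: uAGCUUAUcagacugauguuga
miR-21a-3p: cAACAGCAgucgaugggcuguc
miR-21b: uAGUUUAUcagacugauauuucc
miR-21c: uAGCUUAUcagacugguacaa

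Among the 1738 mature sequences in the RefSeq table, only miR-21c had the seed of miR-21a-5p, and no other sequence had that of the 3p strand. Compared base by base from the 5′ end, without gaps, miR-21b was identical to miR-21a-5p at 18 of 22 positions and miR-21c at 16 of 21. Each substitution is written as the base of miR-21a-5p, the position counted from 1 at its 5′ end, and the base of the other miRNA. In miR-21b the substitution C4U lies in the seed, with G18A, G21U and A22C behind it. In miR-21c the substitutions A16G, G18A, U19C, U20A and G21A all lie in the 3′ part. The longest run that miR-21a-5p shared with any of 1004 other miRNA hairpins was 15 bases, with Mir21c, and for the 3p strand it was 10 bases. Each whole strand was found in only 2 of 141767 GENCODE transcripts, that of Mir21a and the mRNA of its host Vmp1, which are the same locus. The search covered annotated transcripts and not the genome.

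Mir21a lies on chromosome 11 at 86584067 to 86584158 on the minus strand (mm10), inside exon 12 of 12 of the protein-coding gene Vmp1, which encodes a membrane protein of autophagy. The hairpin of 92 bases is in the 3′ untranslated region of 1 of the 8 annotated Vmp1 transcripts, starts after 1149 bases of that region and ends 202 bases before the transcript does. Of all miRNA genes, 34 (1.54%) lay wholly inside a 3′ untranslated region of their own strand. Mir21a had the highest level of these 34 and held 71.5% of their summed counts in replicate 1 and 75.5% in replicate 2. Levels are given in CPM, the reads of a gene per 1e6 reads counted at miRNA genes of that library. Mir324, in Dvl2, came next with 1569 and 1759 CPM (replicate 1 first, here and below), and Mir331, in Vezt, had 32.3 and 34.5 CPM. Only 7 of the 34 genes had 10 or more counts in mean. The mRNA of Vmp1 was not measured by this assay.

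**Figure D1:**
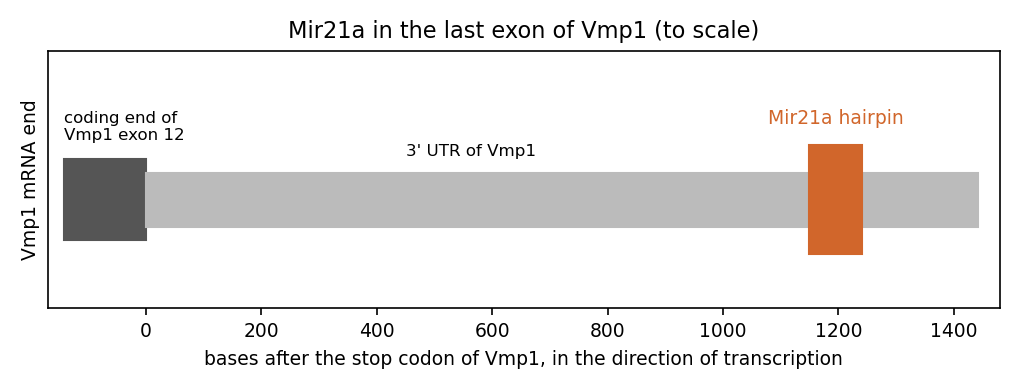
The horizontal axis gives bases after the Vmp1 stop codon in the direction of transcription. The dark block is the coding end of exon 12, the light block the 3′ untranslated region, and the coloured block the Mir21a hairpin, which begins after 1149 bases and ends 202 bases before the transcript end.

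On chromosome 11, the nearest annotated miRNA gene on one side of Mir21a was Mir5110, 823 kb away, with 0 counts in both libraries. On the other side it was Mir301, of the miR-130 family, 529 kb away, with 82.1 and 97.5 CPM. With the TMM scaling described below, Mir301 did not differ between the libraries beyond counting error. Its log2 ratio, replicate 1 over replicate 2, was -0.05 (SE 0.10, adjusted p of the exact binomial test 0.741). By total miRNA counts the log2 ratio of every gene is 0.20 lower, and no call of Mir301 by that scaling is given. Among the 137 miRNA genes of chromosome 11, Mir21a was the fifth by mean level, behind Mir10a, Mir22, Mir451a and Mir744. Of these, Mir451a was ahead of Mir21a in replicate 1 alone (21615 and 695 CPM).

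Mir21a was an abundant miRNA of the gland but not one of its leaders. It had 23562 counts of 5752428 at miRNA genes in replicate 1 and 18657 of 3333149 in replicate 2. These were 4096 and 5597 CPM, with a mean of 4847 ± 1062 CPM (SD, n = 2), so the spread was 21.9% of the mean. As a share of miRNA counts, Mir21a took 0.410% in replicate 1, with an exact 95% interval (Clopper-Pearson) from 0.404 to 0.415. In replicate 2 it took 0.560%, with an interval from 0.552 to 0.568. The intervals did not overlap, and replicate 2 was the higher of both. They cover the counting error of reads within 1 library only, and not variation between animals. PCR copies of 1 molecule cannot be told apart without molecular identifiers, so the intervals may be too narrow for the sampling of molecules.

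All reads counted at Mir21a were on its own strand, with 0 of the opposite strand in either library. Mir21b and Mir21c had 0 counts in both libraries and on both strands. A count of 0 allows up to 3 counts, or 0.522 CPM in replicate 1 and 0.900 CPM in replicate 2. Mir21a was thus at least 7854-fold higher than either gene in replicate 1 and at least 6219-fold higher in replicate 2, by that limit per library. Within the reads counted at genes, the shared seed of miR-21a-5p and miR-21c came from Mir21a. The tables count reads per gene, so the 5p and 3p strands were not told apart.

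By mean CPM Mir21a ranked 37 of 2202 genes, at 39 in replicate 1 and 30 in replicate 2. Mirlet7g, a growth-restraining let-7 gene and the highest of all, had 27.7 times its level in replicate 1 and 20.8 times in the other library. Genes above Mir21a held 89.1% of the miRNA counts in replicate 1 and 83.6% in replicate 2. At the other end, 1452 genes had no count in either library, and the 750 genes with a count had a median of 2.58 CPM. In both libraries alike, 29 genes were above Mir21a and 2163 below it, and for the other 9 the order turned between the animals.

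**Figure D2:**
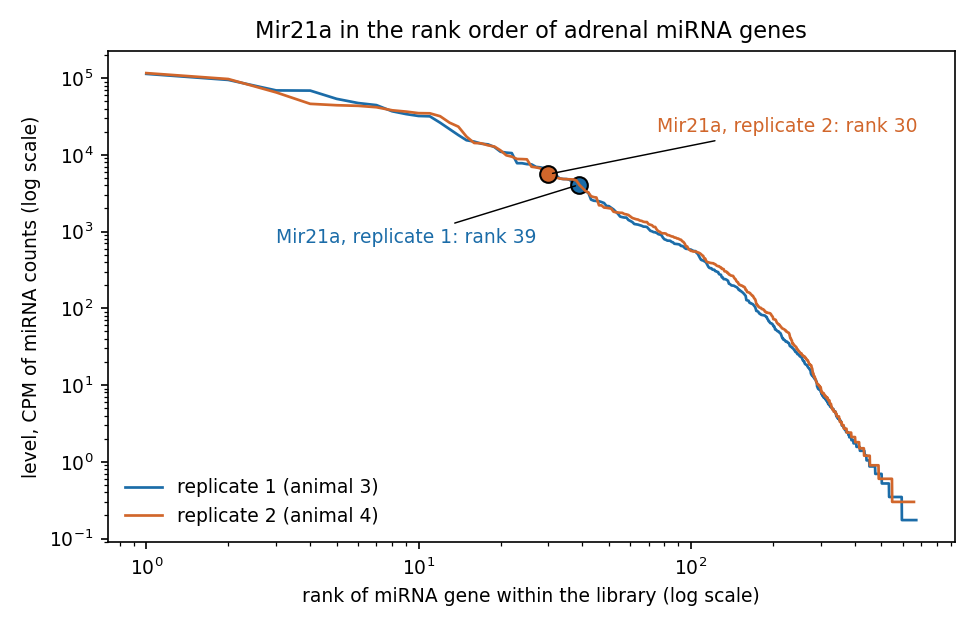
Level of every miRNA gene with a count, in CPM on a log axis, against its rank within the library, also on a log axis, with 1 line per library. Mir21a (circles) sits at 4096 CPM and rank 39 in replicate 1 and at 5597 CPM and rank 30 in replicate 2, on the shoulder before both lines fall steeply.

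The neighbours of Mir21a in the order were close to it. Of the 5 genes next above and the 5 next below by mean CPM, 7 had means within 1 SD of Mir21a, and 5 kept the same order to Mir21a in both libraries. Mir411, an imprinted miRNA gene of the Dlk1-Dio3 region, kept it most evenly, at 1.20-fold the level of Mir21a in replicate 1 and 1.19-fold in replicate 2. Mir98, of the let-7 family, was 1.37-fold and 1.02-fold. Below Mir21a, Mir7b, a miRNA of neuroendocrine cells, had 0.895 and 0.861 of its level. Mir27b had 0.607 and 0.828, and Mir130a 0.617 and 0.723.

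The order turned for Mir320, Mir541, Mirlet7f-2, Mir382 and Mir28a. Mir320, whose hairpin is processed without Drosha, was at 1.90 times the level of Mir21a in replicate 1 and at 0.662 of it in replicate 2. Mir382 was at 1.18 times its level in replicate 1 and at 0.853 in replicate 2, and Mir28a at 1.02 and 0.604. For these 5 genes the place relative to Mir21a is therefore not settled by 2 libraries.

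Over both libraries, the 5 genes whose levels were most like those of Mir21a were Mirlet7f-2, Mir7b, Mir382, Mir411 and Mir98. Likeness was the Euclidean distance in log2 CPM over the 2 libraries, among 258 other genes with 100 or more counts in mean. The distances were 0.23, 0.27, 0.33, 0.37 and 0.46. Mirlet7f-2 has a product encoded at more than 1 locus, so reads shared between loci are missing from its count. The exact binomial test called Mir7b and Mir411 lower in replicate 1, as it did Mir21a, and Mirlet7f-2, Mir382 and Mir98 higher. Over all tested genes it called 28.3% lower and 30.8% higher. These 5 genes were picked by the same levels that give the ratios, so a shared direction is no further likeness. By total counts Mirlet7f-2 and Mir98 also had log2 ratios below 0 (-0.15 and -0.0294). A distance over 2 points describes these libraries and no more.

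The rank is uncertain for another reason. The tables assign no read to a gene if it aligned to several places, which was the case for 39.4% of the aligned reads of replicate 1 and for 41.2% of those of replicate 2. Neither strand of Mir21a is encoded at a further locus in the RefSeq table. Of the tested genes ranked below Mir21a, 46 have a mature product encoded at more than 1 locus and could rank higher with those reads. Above it this held for 1 (Mirlet7f-2) of 36 genes, of which 31 have an entry there. The 46 come from a larger set, with 389 genes tested in all, so 46 and 1 are not shares to compare. RefSeq gave a mature sequence for 1018 of the 2202 symbols, so both counts may be incomplete. Of all aligned reads, Mir21a held 0.208% in replicate 1 and 0.249% in replicate 2.

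Mir21a was lower in replicate 1 than in replicate 2. After TMM scaling, which sets library sizes from the bulk of genes, the log2 ratio of replicate 1 over replicate 2 was -0.25 with a counting error of 0.01 (SE), or 1.19-fold higher in replicate 2. The two-sided exact binomial test on the reads of the 2 libraries gave an adjusted p of 2.88e-69 (Benjamini-Hochberg over the 389 genes that averaged at least 10 counts). This test compares these libraries and not conditions, and it called 59.1% of all tested genes, 30.8% as higher in replicate 1 and 28.3% as lower. Of 28 other genes between 2000 and 10000 CPM in mean, a range chosen after the values were seen, it called 27. Of the 389 genes, 34.2% had a smaller absolute log2 ratio than Mir21a, and the median absolute log2 ratio was 0.40.

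A model that allows for more than counting error did not call Mir21a. The biological coefficient of variation that edgeR estimated over these 2 libraries was 0.361. With the common dispersion behind it, edgeR's exact test gave an unadjusted p of 0.738 and an adjusted p of 1 for Mir21a. That test called 4 of 389 genes (1.03%), Mir21a not among them, and 16 (4.11%) had an unadjusted p under 0.05. The dispersion comes from the difference between the same 2 libraries, with 1 library on each side, so this is no independent measure of the variation between animals.

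**Figure D3:**
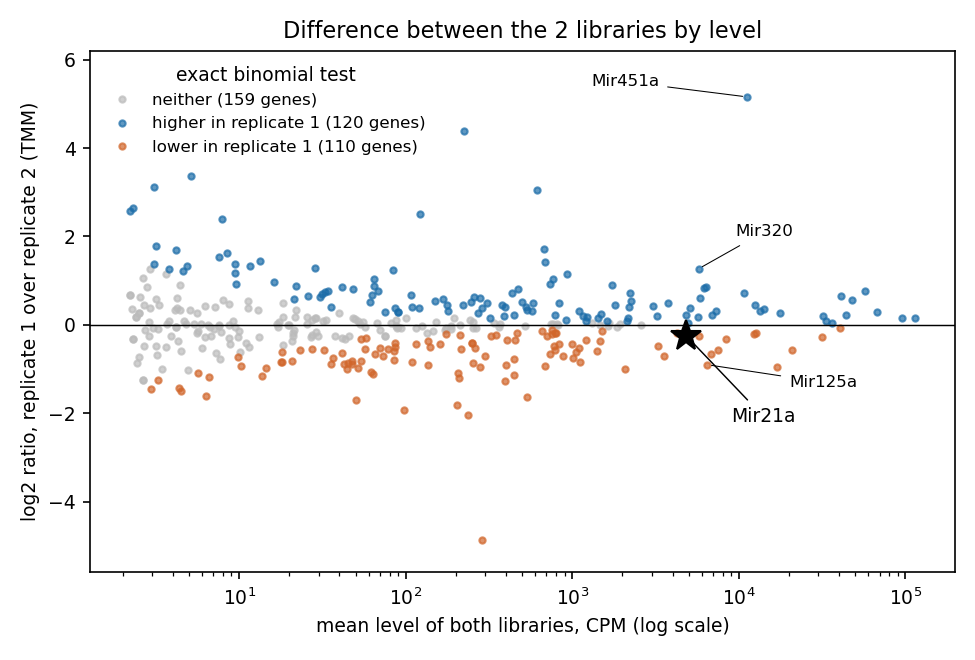
Log2 ratio of replicate 1 over replicate 2 after TMM scaling against mean CPM (log axis) for the 389 tested genes, coloured by the call of the exact binomial test. Mir21a (star) lies at -0.25, close to the zero line, while Mir451a lies at 5.16, Mir320 at 1.27 and Mir125a at -0.90.

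The direction held under each scaling tried and the size did not. By total miRNA counts the log2 ratio was -0.45, or 1.37-fold higher in replicate 2, and TMM moved all ratios up by 0.20 against that scaling. With DESeq2 size factors it was -0.26 and by all reads in the file -0.32. The totals differ in red blood cell miRNAs, among other genes: Mir451a, Mir144 and Mir486 together held 22813 CPM in replicate 1, against 901 CPM in replicate 2. The part of these genes in the shift of 0.20 was not tested. Without these 3 genes in the total, Mir21a stood at 4192 and 5602 CPM, and its log2 ratio by TMM was -0.25 as before.

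**Figure D4:**
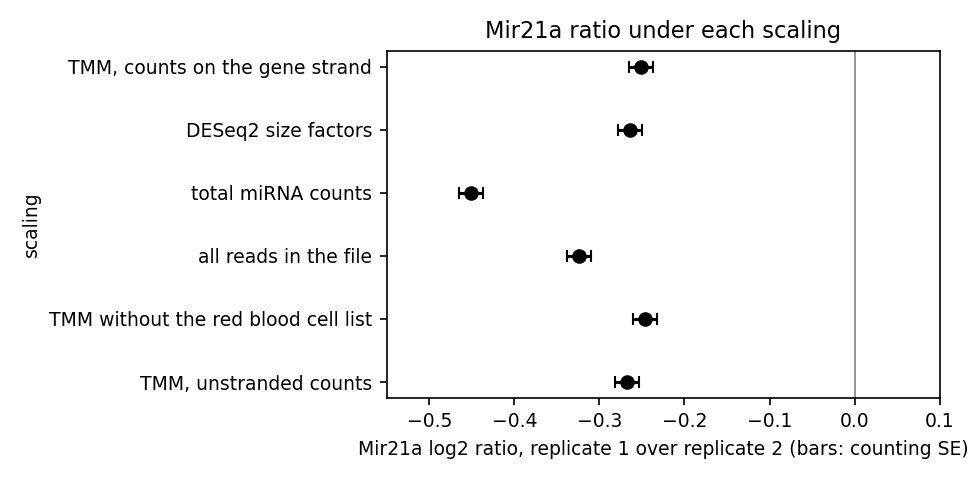
Mir21a log2 ratio of replicate 1 over replicate 2 (horizontal axis) under 6 choices of library scaling or strand column, with bars for the counting SE of 0.01. All 6 points lie below 0, between -0.45 by total miRNA counts and -0.25 by TMM.

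Corticotropin (ACTH) is the other peptide hormone that drives the adrenal cortex, and 9 miRNA genes reported to respond to it in rodent adrenals were set beside Mir21a. All 9 were below Mir21a in both libraries. Mir132, the highest, was at 1416 and 1449 CPM, and Mir21a exceeded it 2.89-fold and 3.86-fold. Mir214 (734 and 1504 CPM) and Mir27a (759 and 1343 CPM) came next. Mir182, Mir503 and Mir183 lay between 89.7 and 354 CPM. Mir212, which shares a locus with Mir132, had 36.7 and 87.6 CPM, and Mir96 had 7.65 and 19.8 CPM. Mir466b-1 had 0 counts in both libraries. Reads aligned to several places are not counted, so this 0 does not show that its product was absent.

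Summed over the counted reads, these 9 genes reached 3552 and 5039 CPM, so by these counts Mir21a alone exceeded the list 1.15-fold and 1.11-fold. Of the 8 tested genes, 2 were called higher in replicate 1 (Mir132, which turns below 0 by total counts, and Mir183) and 4 lower (Mir212, Mir96, Mir214 and Mir27a). Over all tested genes 30.8% were called higher and 28.3% lower. The median log2 ratio of the list was -0.37, against 0.01 over all tested genes. By total counts 1 was higher and 6 lower, where 65.6% of all tested genes were called, 21.9% higher and 43.7% lower.

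Another list held 6 genes whose products have been reported to bind mRNAs of steroidogenic enzymes. Mir125a and Mir320 were the only ones at the level of Mir21a. Mir125a had 4119 CPM in replicate 1, next to the 4096 CPM of Mir21a, and 8839 CPM in replicate 2, where Mir21a was at 0.633 of it. Mir320 had 7778 and 3705 CPM. Mir24-1, Mir24-2, Mir125b-1 and Mir125b-2 lay between 52.2 and 303 CPM, but their products are each encoded at more than 1 locus, so these counts leave out shared reads. Of the 6, 1 was called higher in replicate 1 and 3 lower (1 and 4 by total counts), beside 30.8% higher and 28.3% lower over all tested genes (21.9% and 43.7% by total counts). The median log2 ratio was -0.27.

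Of 7 fibrosis-linked genes, Mir29a alone was above Mir21a in both libraries. Mir29a, whose product represses collagen mRNAs, was at 5533 and 9475 CPM, and Mir21a was at 0.740 and 0.591 of it. Mir29c had 1212 and 1230 CPM. Mir199b, a mesenchymal gene, had 20.5 and 12.0 CPM, and Mir29b-1, Mir29b-2, Mir199a-1 and Mir199a-2 were at 53.4 CPM or less. Mir199b, both Mir29b genes and both Mir199a genes are multi-locus as well. Of 6 tested genes 2 were called higher in replicate 1 and 2 lower (1 and 2 by total counts), with a median log2 ratio of 0.08. Together 4 of 6 were called, near the 59.1% of all tested genes.

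Of 5 inflammation-linked genes, all were below Mir21a in both libraries. Mir146, a brake on innate immune signalling, was the highest with 1522 and 1474 CPM, so Mir21a exceeded it 2.69-fold and 3.80-fold. Mir221 had 762 and 882 CPM and Mir155, a miRNA of activated leukocytes, 318 and 326 CPM. Mir222 (80.7 and 327 CPM) and the myeloid gene Mir223 (36.7 and 159 CPM) were both lower in replicate 1, with log2 ratios of -1.82 and -1.92. Mir146 and Mir155 were called higher in replicate 1, which total counts did not call, and Mir221 neither way. These TMM calls, 2 higher and 2 lower, stand beside 30.8% higher and 28.3% lower over all tested genes. The median of the list was -0.01. By total counts 0 of the 5 were called higher and 3 lower, beside 21.9% and 43.7% of all tested genes.

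**Figure D5:**
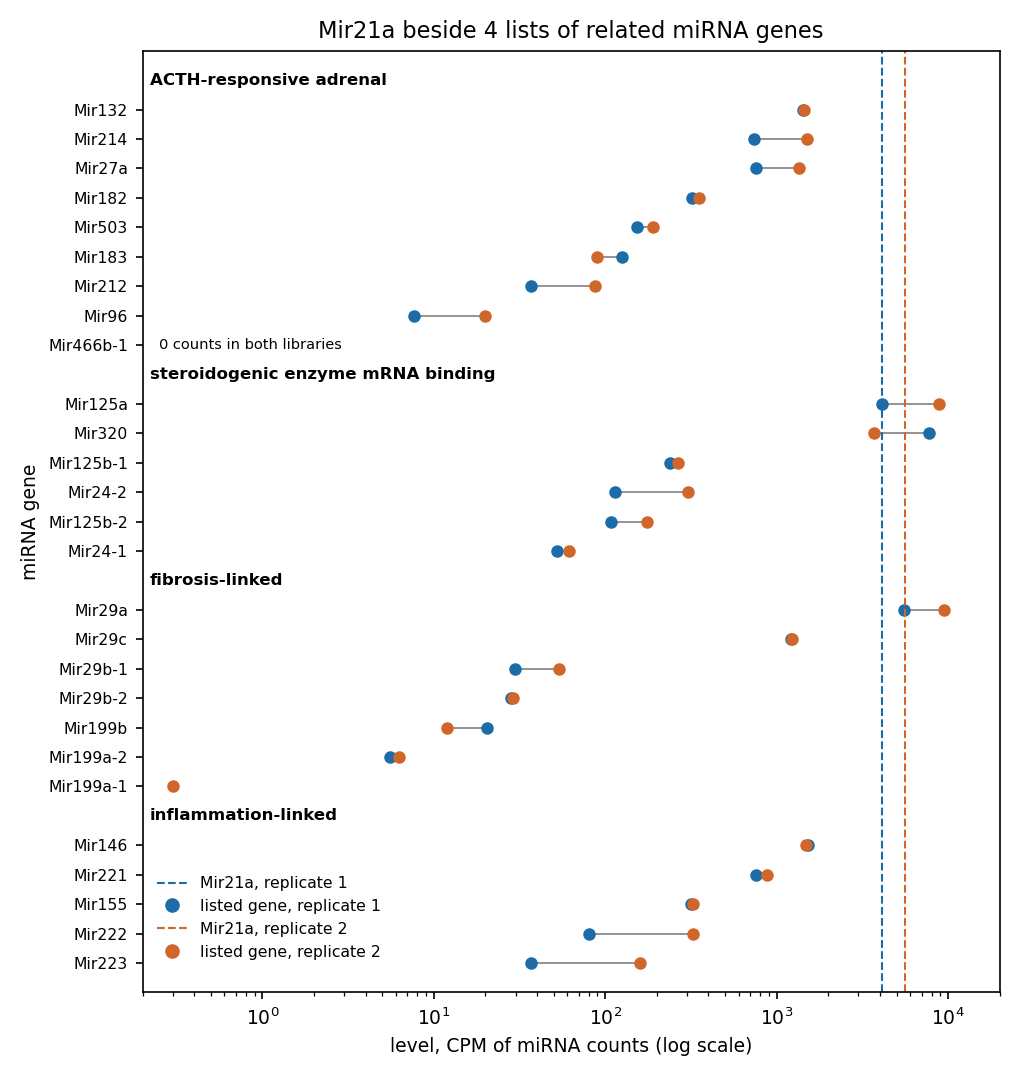
Level in CPM (log axis) of each gene of the 4 lists, with 1 point per library, and Mir21a as dashed lines at 4096 CPM (replicate 1) and 5597 CPM (replicate 2). Mir29a and Mir125a reach or pass the line of their own library in both, Mir320 in replicate 1 alone, and the other listed genes lie left of both lines. A library with 0 counts has no point.

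Marker genes of cell types, some of them of tissues other than the adrenal gland (liver and muscle), moved with the libraries to different degrees. The white blood cell list (Mir142, Mir150, Mir155, Mir223 and Mir146) summed to 2956 and 3251 CPM, and Mir21a exceeded the sum 1.39-fold and 1.72-fold. None of its 5 genes was at 0. Of the 5, replicate 1 was higher for 3 and lower for 2, but by total counts higher for 0 and lower for 2. Over all tested genes the shares were 30.8% and 28.3%, and by total counts 21.9% and 43.7%. The smooth muscle and mesenchymal list of 6 genes summed to 33519 and 34841 CPM, nearly all counted at Mir143. Mir199a-1 was at 0 counts in replicate 1. Mir199a-1, Mir199a-2 and Mir199b have products encoded at more than 1 locus, so their counts leave out shared reads. The 5 tested genes of this list gave 2 calls in each direction, and by total counts 1 higher and 2 lower. Of all tested genes 59.1% were called in either direction, and 65.6% by total counts. The endothelial gene Mir126a had 69154 and 65133 CPM.

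Neuroendocrine genes, which the medulla can supply, went from 72802 CPM in replicate 1 to 51447 CPM in replicate 2, most of it Mir375 (68780 and 46236 CPM), and none of the 4 was at 0. Mir7b went the other way (3666 and 4819 CPM), and the list gave 2 genes higher in replicate 1, 1 lower and 1 neither, or 2 and 2 by total counts. Mir7-1 and Mir7-2 have products encoded at more than 1 locus, so their counts leave out shared reads. All 3 red blood cell genes were called higher in replicate 1. The hepatocyte gene Mir122 had 690 and 1331 CPM, and the list of 5 skeletal and heart muscle genes 718 and 454 CPM, with Mir133b at 0 counts in replicate 2. Of its 4 tested genes 3 were called higher in replicate 1, Mir499 (423 and 23.1 CPM), Mir208b (204 and 40.8 CPM) and Mir208a (9.39 and 0.900 CPM, the latter 3 counts), and 1 lower, Mir206 of skeletal muscle (81.7 and 389 CPM). Each of these counts of calls stands beside 30.8% higher and 28.3% lower over all tested genes. The epithelial list of 5 genes summed to 58.2 and 50.7 CPM, with none at 0. How reads of the hepatocyte and muscle genes came into these libraries was not tested. The part of any of these cell types in the difference of Mir21a was not tested either. No miRNA gene defines adrenal cortex, so the tissue label was not checked against cortical markers.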

How the data were processed

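Whole adrenal glands of 2 mice gave 1 library each. The deposited files hold read counts, whole numbers per miRNA gene for mm10 and GENCODE M21, per the files that describe each library; for the aligner, counter and trimming, no name was given in the sources used here. The authors applied no normalization that the values show. Of 3 count columns (unstranded, gene strand, opposite strand, as the values show), that of the gene's strand was used. Leading rows that name no gene stayed out of totals and tests: counts at miRNA genes were 33.8% of 17000342 reads in replicate 1 and 31.0% of 10752051 in replicate 2. All 2202 identifiers matched GENCODE M21.

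All samples form 1 group, so edgeR's quasi-likelihood test could not be fitted. Reads of a gene in the 2 libraries were set against the ratio of TMM library sizes with an exact binomial test (two-sided), run for genes averaging at least 10 counts, adjusted by Benjamini-Hochberg and called under 0.05. Log2 ratios had 0.5 counts added, and their SE covers counting error. The exact binomial test was checked on simulated libraries with counting error alone, which cannot show how it behaves under variation between animals. Alternatives covered other scalings, denominators, pseudocounts, filters, the unstranded column, edgeR's exact test and leaving out 1 library. The gene and the lists were chosen with earlier results of these data known. Named genes were those sharing a seed with Mir21a, and in addition Mir21b and Mir21c, the 5 nearest in rank on each side, the 5 most alike, the nearest on the chromosome, and the list members. Genes named beyond this rule, for having the highest level of all genes, on chromosome 11 or in 3′ untranslated regions, were chosen after their values were seen. RefSeq (GRCm38.p6) gave a mature sequence for 1018 of the 2202 symbols. Tools were edgeR 4.0.16 and DESeq2 1.42.0 in R 4.3.3, and SciPy 1.17.1, pandas 2.3.3 and matplotlib 3.10.9 in Python 3.11.15.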

Additional observations from a re-analysis of the deposited data

How the results depend on the processing

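The direction of Mir21a, lower in replicate 1, held under every alternative that gave a ratio, with log2 ratios from -0.45 to -0.25. Its call was lost with edgeR's exact test at the common dispersion (log2 ratio -0.25, adjusted p 1), which called 4 genes where the exact binomial test called 230; all other alternatives kept the call and gave 199 to 255 called genes. By total counts 85 genes were called higher in replicate 1 and 170 lower, against 120 and 110 with TMM. The share of Mir21a was 0.156% of all reads and 0.228% of aligned reads, since these totals are larger. By unstranded counts its share was 0.574% and its rank 31. Leaving out 1 of 2 libraries only restates the value of the other. The share was then 0.560% and the rank 30 without replicate 1, and 0.410% and 39 without replicate 2. By total counts, the log2 ratio of 9 of 47 listed genes tested went from above to below 0. At least 1 of both scalings called 6 of them, Mir125b-1 (-0.14), Mir132 (-0.0338), Mir143 (-0.00498), Mir155 (-0.0382), Mir182 (-0.15) and Mir29c (-0.0216), and neither called Mir29b-2 (-0.0415), Mir199a-2 (-0.19) and Mir429 (-0.19). No paired analysis was possible because there is 1 group. The counting error of Mir21a was 0.651% of its count in replicate 1 and 0.732% in replicate 2.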
